A study of Mus musculus with 14 samples.

Results

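Killer lymphocytes were followed in mouse lung through 8 genes: Prf1, Gzma, Gzmb, Nkg7, Klrd1, Ncr1, Eomes and Tbx21. They were chosen by name as genes of natural killer cells and cytotoxic T cells, by a rule that uses no measured value although earlier results of these data were known, out of 17178 genes that could be named on the array. All 8 had a probe, Nkg7 had 2, and all 9 probes stood well above background on all 14 arrays. Male C57BL/6N mice had received 200 µg of carbon fibre through the trachea 6 months earlier, or the buffer alone. VCF was the fibre before recycling (4 arrays), CCF the fibre after a carbonization step (3 arrays), RCF the fibre after a firing step (4 arrays), and Ctrl the saline vehicle, PBS (3 arrays). Every group was of the same strain, sex and time, each array held total RNA of lung as a separate biological sample labelled with Cy3, and the mice's age was not given in the sources used here. No untreated mouse is among the groups, so Ctrl lungs had also gone through the instillation.

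A killer lymphocyte carries granules that hold perforin, which opens the membrane of a target cell, and granzymes, proteases that enter through it and start cell death. Receptors at the surface decide whether the granules are released, and the T-box factors T-bet (Tbx21) and Eomes drive the programme in natural killer cells and in effector CD8 T cells. Lung holds many natural killer cells even at rest. In whole lung, fewer cells of a type and less RNA per cell cannot be told apart.

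The tissue label was borne out by all 6 lung genes looked up (Sftpc, Sftpb, Sftpa1, Scgb1a1, Ager and Pecam1), which stood well above background on all 14 arrays. The 75th percentile of probe intensity ran from 724.7 to 1346 over the arrays, 63.1 to 70.5% of probes were well above background, and no spot was saturated. Pairs of arrays correlated at 0.9679 to 0.9901 over probes. The arrays lay on 4 slides, of which slide 4 held no Ctrl array. Genes of liver, thymus or fat were highest in 4 lungs (VCF replicate 1, CCF replicate 2, CCF replicate 3 and RCF replicate 1) and neutrophil genes in Ctrl replicate 1, so values without them are given where they bear on a killer gene. The remaining lungs were not free of such genes: the mean liver gene lay 1.76 above the Ctrl mean in CCF replicate 1 and 1.27 in VCF replicate 4, against 1.97 in VCF replicate 1 and at most 0.20 in a Ctrl lung. The number of arrays limits the precision of all that follows.

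A level here is the log2 intensity of a gene's brightest probe minus the array's 75th percentile, so that 0 is that percentile and 1 unit is a doubling. Differences were tested with limma across all 29269 probes that passed the detection filter, and a probe counted as called at a Benjamini-Hochberg adjusted p under 0.05. None of the 8 killer genes was called for any fibre against Ctrl or between any pair of fibres. Over all 14 arrays the highest lung was 2.39-fold (Tbx21) to 4.21-fold (Gzmb) above the lowest, and most of the genes shared this spread. Within single groups the spread was often smaller, as in the CCF lungs for Tbx21 (-0.32 to -0.11).

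Prf1 (RefSeq NM_011073, probe A_52_P335178) encodes perforin. Its level was -2.12, -2.45, -1.62 and -1.97 in VCF lungs, -0.87, -1.49 and -0.89 in CCF lungs, -2.23, -1.46, -2.19 and -2.77 in RCF lungs, and -1.37, -2.30 and -2.34 in Ctrl lungs. All CCF arrays lay above all VCF arrays, and 2 of them lay above every other array, while CCF replicate 2 lay just below the highest RCF and Ctrl arrays. The group means were -2.04 ± 0.35 in VCF (SD, n = 4), -1.08 ± 0.36 in CCF (n = 3), -2.16 ± 0.54 in RCF (n = 4) and -2.0 ± 0.55 in Ctrl (n = 3).

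Gzma (NM_010370, A_51_P162794) encodes granzyme A, a tryptase. It read 0.88, -0.05, 1.94 and 1.60 in VCF lungs, 1.58, 0.84 and 1.07 in CCF lungs, 1.01, 1.07, 0.50 and 1.17 in RCF lungs, and 2.02, 1.53 and 0.54 in Ctrl lungs. The highest array was a saline lung and the lowest a VCF lung, and the ranges of all 4 groups overlapped. Gzmb (NM_013542, A_51_P333274) encodes granzyme B, which cleaves caspases in the target cell. It read -1.54, -1.67, -0.42 and -0.55 in VCF lungs, -0.16, -1.42 and -0.51 in CCF lungs, -0.96, -0.65, -1.26 and -0.97 in RCF lungs, and 0.41, -0.60 and -1.38 in Ctrl lungs. The extremes were the same 2 arrays as for Gzma, Ctrl replicate 1 at the top and VCF replicate 2 at the bottom.

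Nkg7 (NM_024253, A_52_P24447) encodes a protein of the granule membrane needed for full release of the granules. Its level was 1.55, 0.91, 2.29 and 2.32 in VCF lungs, 2.25, 1.80 and 2.46 in CCF lungs, 1.71, 2.01, 1.60 and 1.89 in RCF lungs, and 2.60, 2.35 and 1.59 in Ctrl lungs. Ctrl replicate 1 was again the highest and VCF replicate 2 the lowest. The second Nkg7 probe (A_51_P499195) had the same 2 arrays at its ends, at -0.37 in VCF replicate 2 and 1.36 in Ctrl replicate 1.

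Klrd1 (NM_010654, A_51_P280947) encodes CD94, which pairs with NKG2 receptors and reads a nonclassical MHC molecule on other cells. Its level was 1.22, 0.84, 2.02 and 1.06 in VCF lungs, 0.93, 1.17 and 1.22 in CCF lungs, 1.26, 1.19, 0.62 and 1.78 in RCF lungs, and 1.82, 1.64 and 1.05 in Ctrl lungs. A VCF lung was highest and an RCF lung lowest, with all groups overlapping. Ncr1 (NM_010746, A_51_P500882) encodes NKp46, an activating receptor that marks natural killer cells and some innate lymphoid cells. It read -3.21, -3.56, -2.27 and -2.73 in VCF lungs, -1.86, -3.21 and -2.71 in CCF lungs, -3.06, -2.83, -2.66 and -3.31 in RCF lungs, and -1.84, -2.77 and -3.13 in Ctrl lungs. CCF replicate 1 and Ctrl replicate 1 stood above the rest, and VCF replicate 2 was the lowest.

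Eomes (NM_010136, A_51_P332309), one of the 2 T-box factors, read -4.85, -4.82, -3.86 and -4.34 in VCF lungs, -3.92, -3.45 and -4.24 in CCF lungs, -4.60, -3.75, -3.68 and -5.19 in RCF lungs, and -4.52, -4.51 and -5.23 in Ctrl lungs. All 3 CCF arrays lay above all 3 Ctrl arrays. Its spots were dim, at 25.2 to 79.5 intensity units before scaling. Tbx21 (NM_019507, A_51_P501364), the other, read -1.12, -1.20, -0.25 and -0.53 in VCF lungs, -0.11, -0.32 and -0.28 in CCF lungs, -0.50, -0.50, -0.42 and -1.03 in RCF lungs, and -0.18, -0.64 and -1.37 in Ctrl lungs. The CCF arrays lay close together and above all RCF arrays, while Ctrl replicate 1 and VCF replicate 3 were among them.

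**Figure D1:**
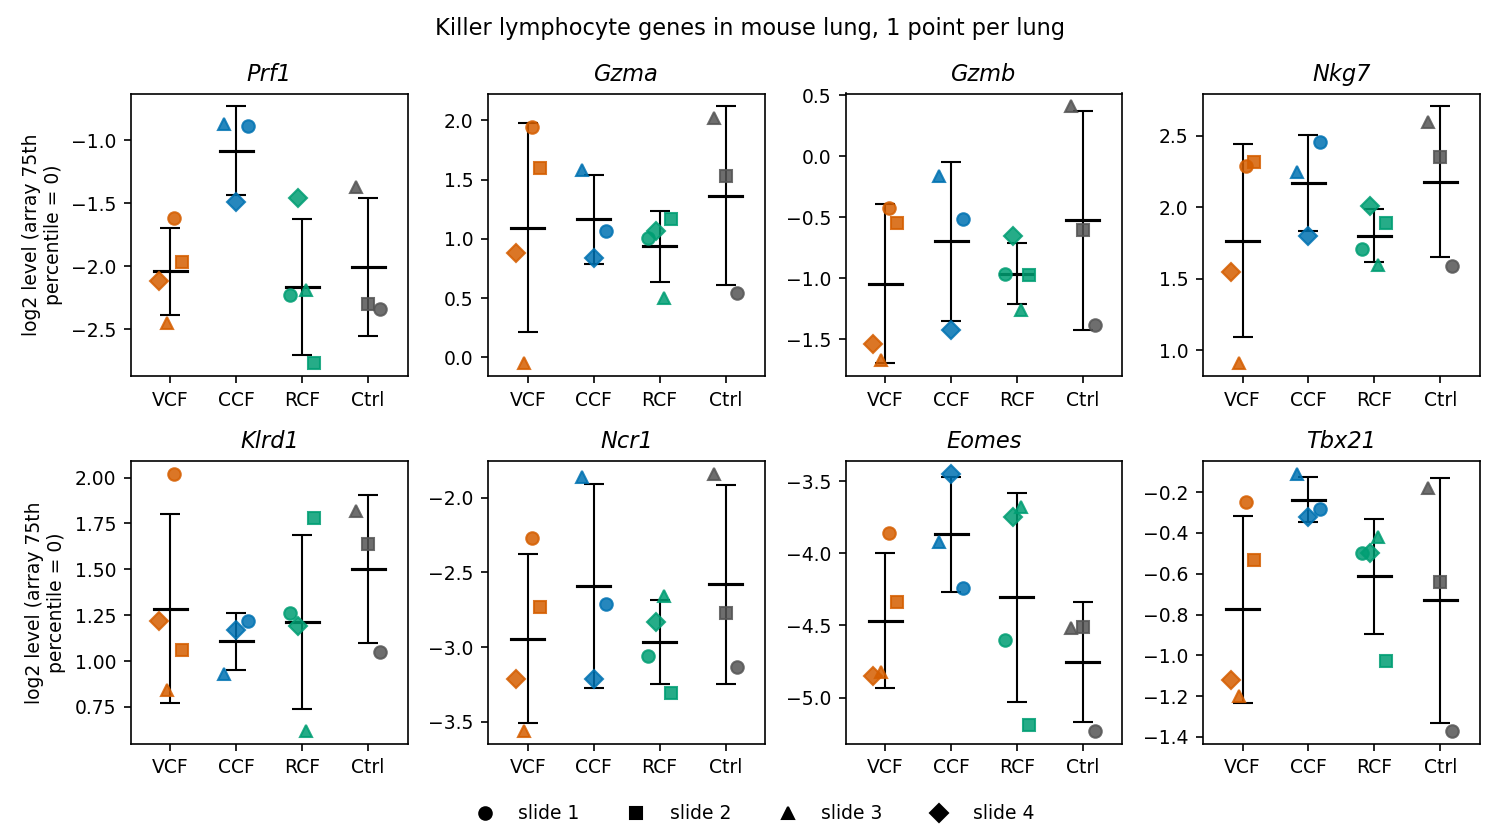
Log2 level of each killer gene, 1 panel per gene, with the array's 75th percentile at 0. Each point is 1 lung (VCF 4, CCF 3, RCF 4, Ctrl 3), its shape gives the slide, and the bar and whiskers are the mean and SD. The groups overlap in most panels, and the CCF points for Prf1 lie above all VCF points.

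The killer genes moved together from lung to lung. Over the 14 arrays the 28 pairs of genes had a median Pearson r of 0.62 (range -0.18 to 0.90), and 26 of the 28 were above 0. By a permutation test with 100000 resamples and Benjamini-Hochberg adjustment over the 28 pairs, 17 pairs passed at 0.05 for Pearson's r and 15 for Spearman's rho. With group means removed the median r was 0.71 (0.01 to 0.93), and with group and slide means removed it was 0.81 (0.14 to 0.96). A slide held 3 or 4 arrays, too few for a correlation within it. Leaving out, for each pair, the 2 arrays farthest from the median of the first gene gave a median r of 0.56, and all 17 passing pairs kept a positive r. The arrays share their RNA, slide and scaling across all genes, so a shared spread is a description of these lungs. Pairs of other genes were not put through this test, so no share over all genes stands beside these counts. The shuffling ran over all 14 arrays and took no account of slide.

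The tightest pairs joined the granule genes Gzma, Gzmb and Nkg7 and the receptor gene Ncr1. Prf1, also a granule gene, went with Gzma at r = 0.44 (rho = 0.46, adjusted permutation p = 0.167 and 0.141). Its r was 0.60 with both Gzmb and Nkg7. Gzma and Nkg7 had r = 0.90 and rho = 0.84 (permutation p = 3e-05, adjusted 0.00028 for r, and p = 0.00036, adjusted 0.00213 for rho), and r was 0.80 without VCF replicate 2 and Ctrl replicate 1. Gzmb went with Nkg7 at r = 0.89 and rho = 0.89 (permutation p = 3e-05, adjusted 0.00028, and p = 5e-05, adjusted 0.00084), and r stayed at 0.89 without the same 2 arrays. Ncr1, the receptor gene, followed Gzmb at r = 0.88 and rho = 0.87 (permutation p = 3e-05, adjusted 0.00028, and p = 0.00014, adjusted 0.00131), with 0.79 without those 2 arrays. Eomes followed the other T-box gene Tbx21 at r = 0.78 and rho = 0.68 (permutation p = 0.00095, adjusted 0.005, and p = 0.00898, adjusted 0.0251), with 0.73 without CCF replicate 2 and Ctrl replicate 3. Klrd1 and Eomes stood least with the set. For Klrd1, r was -0.01 with Prf1 (rho = 0.05, adjusted permutation p = 0.985 and 0.866) and -0.18 with Eomes (rho = -0.17, adjusted permutation p = 0.582 and 0.616), and without the 2 farthest arrays 0.21 and -0.40. Klrd1 did go with Gzma, at r = 0.70 and rho = 0.64 (adjusted permutation p = 0.0122 and 0.0341). Eomes had r = 0.20 with Gzma, 0.22 with Gzmb and 0.29 with Nkg7.

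The ends of this spread were held by 2 arrays. VCF replicate 2 was among the 3 lowest arrays for 7 of the 8 genes, and Ctrl replicate 1 was among the 3 highest for 7 of the 8. The mean of the 8 genes, each centred on its own mean over the arrays, was -0.38, -0.74, 0.49 and 0.12 in VCF lungs, 0.49, 0.00 and 0.28 in CCF lungs, -0.16, 0.15, -0.17 and -0.29 in RCF lungs, and 0.63, 0.10 and -0.52 in Ctrl lungs. The 3 saline lungs spanned -0.52 to 0.63, about as wide as the 4 VCF lungs, and the RCF lungs were the closest together.

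**Figure D2:**
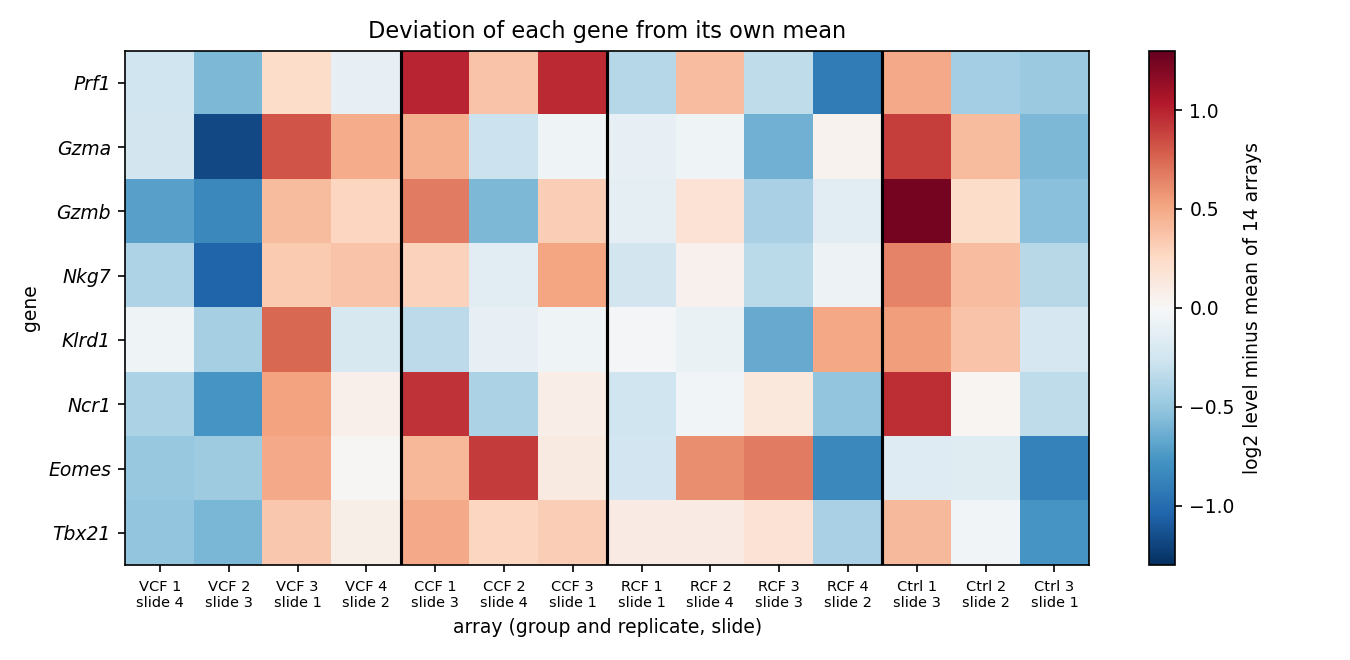
Deviation of each killer gene (rows) from its own mean over the 14 arrays, in log2 units, with arrays in columns by group and with the slide named under each. Columns tend to share a colour from top to bottom, blue in VCF replicate 2 and red for 7 of 8 genes in Ctrl replicate 1.

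Since these genes moved together, the DNA before their start sites is shown for the 4 that formed the tightest pairs. The windows are RefSeq promoter windows on build GRCm38.p6, 250 bases before to 50 after the annotated start, and were given for 7 of the 8 genes, Klrd1 being the exception. They were searched on both strands for a T-box core, GTGTGA, of the family of T-bet and Eomes, and for the core of the RUNX family, TGTGGT. The 250 bases before the start are printed 5′ to 3′ on the gene's strand, with matches to either core in capitals: Gzmb (chr14:56262335-56262584, minus strand), Nkg7 (chr7:43436888-43437137, plus strand), Ncr1 (chr7:4337465-4337714, plus strand) and Gzma (chr13:113100982-113101231, minus strand).
Gzmb: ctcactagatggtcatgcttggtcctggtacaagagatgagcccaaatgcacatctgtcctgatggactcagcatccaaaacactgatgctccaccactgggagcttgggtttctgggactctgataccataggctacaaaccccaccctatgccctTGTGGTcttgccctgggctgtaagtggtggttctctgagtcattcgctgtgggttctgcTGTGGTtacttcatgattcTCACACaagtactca
Nkg7: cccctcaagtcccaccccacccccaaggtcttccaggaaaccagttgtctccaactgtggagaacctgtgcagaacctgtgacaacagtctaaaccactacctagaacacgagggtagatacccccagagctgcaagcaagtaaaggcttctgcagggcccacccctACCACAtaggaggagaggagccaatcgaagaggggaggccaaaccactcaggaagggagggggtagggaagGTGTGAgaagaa
Ncr1: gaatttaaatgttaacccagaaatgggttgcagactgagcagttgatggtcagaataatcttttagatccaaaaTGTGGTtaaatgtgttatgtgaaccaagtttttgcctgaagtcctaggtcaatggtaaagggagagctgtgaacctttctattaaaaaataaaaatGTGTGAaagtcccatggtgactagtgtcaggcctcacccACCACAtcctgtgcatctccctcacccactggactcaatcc
Gzma: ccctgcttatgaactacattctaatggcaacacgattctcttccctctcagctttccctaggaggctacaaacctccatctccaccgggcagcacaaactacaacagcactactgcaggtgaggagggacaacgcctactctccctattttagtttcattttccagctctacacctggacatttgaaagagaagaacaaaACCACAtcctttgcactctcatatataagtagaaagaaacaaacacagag

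The T-box core was in the windows of 3 of 7 genes, with its first base 15 bases before the start in Gzmb, 12 in Nkg7 and 80 in Ncr1. Among all 27025 genes with a window, 16.4% held that core. The RUNX core was in 5 of 7, against 18.9% of all genes: 50 bases before the start in Gzma, 93 and 34 in Gzmb, 83 in Nkg7, 176 and 41 in Ncr1, and 130 in Prf1. Ncr1 has a second, overlapping window that also held both cores, no T-box match overlapped a RUNX match, and the windows of Eomes and Tbx21 held neither core. A match of 6 letters is a description of the sequence, and binding was not measured.

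Outside all gene lists used here, the genes whose levels followed the mean of the killer genes most closely over the 14 arrays were Klrb1a (Pearson r = 0.93), Klra8 (0.91), Klra6 (0.90), Klra9 (0.90) and Epsti1 (0.89), out of 14346 genes compared. For Gzma alone they were Klrb1a (0.95), Klra9 (0.91) and Slc28a2 (0.90). Members of the Klra family resemble one another in sequence, as do those of the Klrb1 family, so probes within a family may share signal. That was not tested. These r are descriptions with no test, chosen as the highest of all genes.

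VCF against Ctrl asks whether virgin fibre left a change in killer genes at 6 months. None of the 8 was called, and 0.0102% of all probes were (3 of 29269). The mean was lower in VCF for 7 of the 8 genes, where 54.2% of all 14468 genes tested were lower, and the median difference was -0.24 against -0.02 over all genes. Differences ran from -0.52 (SE 0.44) for Gzmb to 0.29 (SE 0.38) for Eomes, with limma adjusted p-values of 0.857 to 0.993 and none of the 8 was under 0.05 before adjustment, where 2.63% of all genes were under it and higher and 2.79% under it and lower. No killer gene separated the arrays of VCF and Ctrl, as 3.31% of all genes did upward and 3.25% downward. Gzmb averaged -1.04 ± 0.65 in VCF lungs and -0.52 ± 0.89 in Ctrl lungs (SD, n = 4 and 3), and the 95% interval of its difference ran from -1.47 to 0.43. Nkg7 averaged 1.77 ± 0.67 in VCF lungs and 2.18 ± 0.52 in Ctrl lungs, a difference of -0.41 (SE 0.33, limma adjusted p = 0.857), or -0.23 (SE 0.34) at its other probe. Leaving out Ctrl replicate 1 gave a median difference of 0.03, and leaving out Ctrl replicate 3 gave -0.54. The same value was 0.01 when VCF replicate 2 was dropped and -0.51 when VCF replicate 3 was.

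CCF against Ctrl asks the same of carbonized fibre. Perforin and Eomes were the highest here relative to saline, yet no killer gene was called, as for all probes (0%, 0 of 29269). Prf1 was 1.89-fold higher in CCF, a log2 difference of 0.92 (SE 0.35, 95% interval 0.17 to 1.67), with limma p = 0.0206 before adjustment and 0.714 after, and an exact two-sided permutation p of 0.2. Eomes averaged -3.87 ± 0.40 in CCF lungs and -4.75 ± 0.41 in Ctrl lungs, a difference of 0.88 (SE 0.40, 95% interval 0.01 to 1.76, limma p = 0.0478, adjusted 0.75), with an exact permutation p of 0.1, the smallest that 3 against 3 arrays allow. Unadjusted p was under 0.05 and higher for 2 of the 8 genes and for 2.52% of all genes. With slide as a block, 0 of the 8 were under 0.05 before adjustment, Prf1 and Eomes included.

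The arrays of CCF and Ctrl did not overlap for 1 of the 8, Eomes, and for 3.37% of all genes in that direction. In the lower direction the counts were 0 of 8, against 3.12% of all genes by unadjusted p and 6.14% by separation of the arrays. Tbx21 averaged -0.24 ± 0.11 in CCF lungs and -0.73 ± 0.60 in Ctrl lungs (difference 0.49, SE 0.31, limma adjusted p = 0.813). The other 5 genes were lower in CCF, where 58.7% of all genes were, from -0.39 (SE 0.33) for Klrd1 to -0.01 for both Ncr1 (SE 0.41) and Nkg7 (SE 0.36). At its second probe Nkg7 was higher in CCF, by 0.18 (SE 0.36). The median of the 8 was -0.01, against -0.04 over all genes. That median was 0.33 when Ctrl replicate 1 was dropped and -0.29 when Ctrl replicate 3 was. Dropping the 4 arrays high in genes of other tissues gave 0.49, with 1 CCF array remaining, replicate 1, itself raised in liver genes.

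RCF against Ctrl asks it of fired fibre. None of the 8 was called, with 0% of all probes called (0 of 29269). None of the 8 was under 0.05 before adjustment, against 3.08% of all genes higher and 3.03% lower, and none separated the arrays, against 4.75% higher and 4.68% lower. The mean was lower in RCF for 6 of 8, against 50.3% of all genes, and the median difference was -0.33, against -0.002 over all genes. The range was -0.44 (SE 0.44) for Gzmb to 0.45 (SE 0.38) for Eomes, with limma adjusted p from 0.993 to 0.997. Gzma averaged 0.94 ± 0.30 in RCF lungs and 1.36 ± 0.75 in Ctrl lungs (difference -0.43, SE 0.44, 95% interval -1.38 to 0.53). Dropping Ctrl replicate 1 moved the median to 0.01, and dropping Ctrl replicate 3 moved it to -0.59.

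With the 3 fibre groups weighted equally against Ctrl, no killer gene was called either (0.00342% of all probes, 1 of 29269). None was under 0.05 before adjustment, against 2.92% of all genes higher and 2.88% lower, and none separated all fibre arrays from Ctrl, against 0.449% higher and 0.373% lower. Gzma ran from -0.05 to 1.94 (median 1.07) over the 11 fibre lungs, against 0.54, 1.53 and 2.02 in Ctrl. The smallest unadjusted p was that of Eomes, 0.119 (difference 0.54, SE 0.32, limma adjusted p = 0.818). Of the 8 genes 5 were lower and 3 higher, with 56% of all genes lower. The 95% intervals of the 8 differences lay between -1.18 and 1.24. The comparisons with Ctrl share the same 3 saline arrays.

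**Figure D3:**
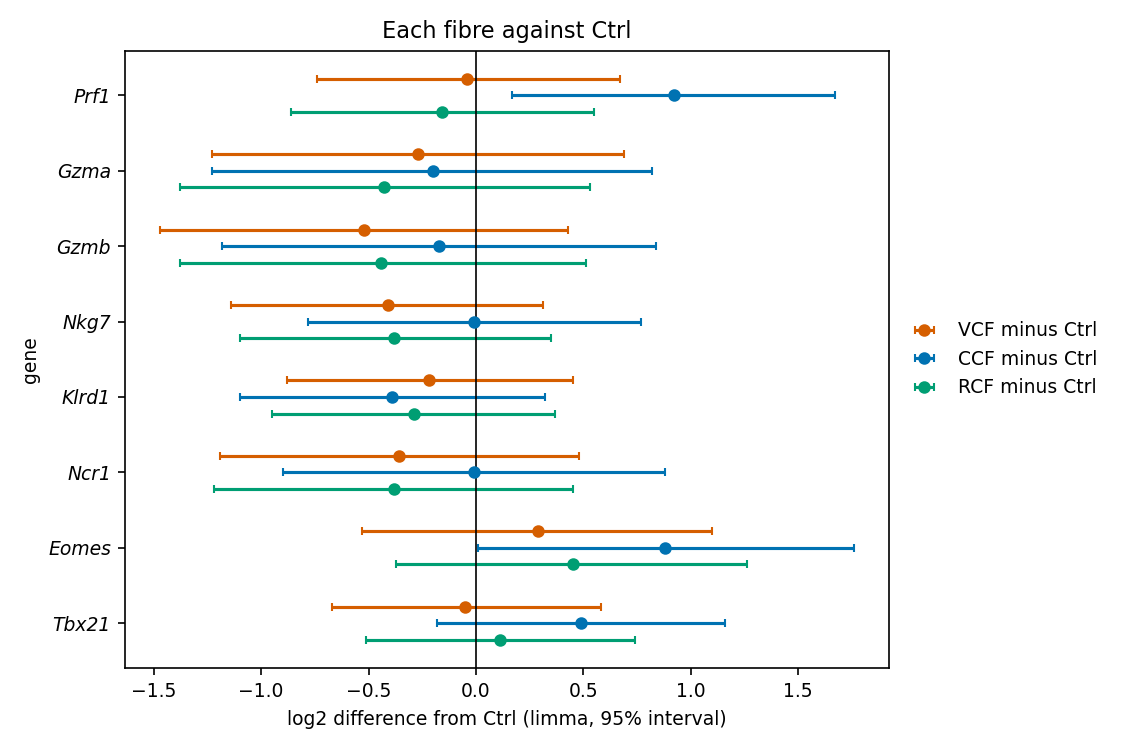
Log2 difference of each killer gene from Ctrl for VCF, CCF and RCF, with limma's 95% interval as whiskers. The intervals reach 0 except for Prf1 and Eomes in CCF, at 0.92 and 0.88, and neither passed after adjustment over all probes.

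In both comparisons of CCF with another fibre, Prf1 was the killer gene that differed most. It was 1.94-fold higher in CCF than in VCF, a log2 difference of 0.96 (SE 0.32, 95% interval 0.25 to 1.66, limma p = 0.0119, adjusted 0.733), with no overlap of the arrays and an exact permutation p of 0.0571. In that comparison 0% of all probes were called, 1 of 8 killer genes and 1.02% of all genes were higher at an unadjusted p under 0.05, and 1 of 8 and 1.23% were higher with no overlap. In the lower direction none of the 8 met either rule, against 2.85% and 2.6% of all genes. Of the 8 genes 7 had a higher mean in CCF, where 47.2% of all genes did, with a median of 0.38. Leaving out 1 array at a time moved that median between 0.14 (VCF replicate 2 left out) and 0.58 (CCF replicate 2 left out).

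In RCF against CCF, Prf1 differed by -1.08 (SE 0.32, 95% interval -1.78 to -0.37, limma p = 0.00582, adjusted 0.479), although RCF replicate 2 lay above CCF replicate 2 and the exact permutation p was 0.0857. There 0% of all probes were called, and 1 of 8 killer genes against 2.69% of all genes was lower at an unadjusted p under 0.05 (0 of 8 against 5.16% higher). Tbx21 was the 1 of 8 with no overlap in the lower direction, which 3.06% of all genes showed, with 6.9% in the higher one (difference -0.38, SE 0.29, limma adjusted p = 0.771, exact permutation p = 0.0571). Nkg7, counted at its brightest probe, overlapped there. Its second probe did not overlap (difference -0.46, SE 0.34, limma adjusted p = 0.763, exact permutation p = 0.0571). The mean was lower in RCF for 7 of 8, against 44.6% of all genes, and the median was -0.37, or -0.17 with CCF replicate 1 left out. RCF against VCF gave 4 higher and 4 lower, differences between -0.15 and 0.16 and limma adjusted p of 1, with 0% of all probes called. No killer gene there was under 0.05 before adjustment (1.77% of all genes higher, 1.28% lower) or separated the arrays (1.57% higher, 1.24% lower), and 52.6% of all genes were higher. In the 6 comparisons whose array numbers allow an exact permutation p under 0.05, no killer gene reached it.

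Within slides, the direction against saline differed from slide to slide. On slide 1, which holds Ctrl replicate 3, all 8 killer genes were higher in VCF (by 0.70 to 1.40), in CCF (by 0.18 to 1.46) and in RCF (by 0.07 to 0.87). On slide 3, which holds Ctrl replicate 1, all 8 were lower in VCF (-2.07 to -0.30), 7 of 8 were lower in RCF and 5 of 8 in CCF. On slide 2 the count was 6 higher and 2 lower in VCF, and 1 higher and 7 lower in RCF. Each such value sets 1 array against 1.

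Prf1 kept its direction in CCF against Ctrl on both slides that allow it, at 1.46 on slide 1 and 0.50 on slide 3, and in CCF against VCF on 3 slides, at 0.73, 1.59 and 0.62. In RCF against CCF it was -1.34, -1.32 and 0.04 on slides 1, 3 and 4. With slide as a block in the limma fit the Prf1 difference for CCF against Ctrl was 0.79 (adjusted p = 0.752). Eomes was 0.99 and 0.60 higher in CCF than in Ctrl on slides 1 and 3, and 0.75 higher with slide as a block. With normexp background correction Prf1 differed by 0.51 and Eomes by -0.10 in CCF against Ctrl. The same correction moved the Prf1 difference from 0.96 to 0.52 in CCF against VCF, and from -1.08 to -0.57 in RCF against CCF. The size of these Prf1 differences between fibres thus depended on how background was handled. With quantile normalization they were 0.96 and -1.05.

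**Figure D4:**
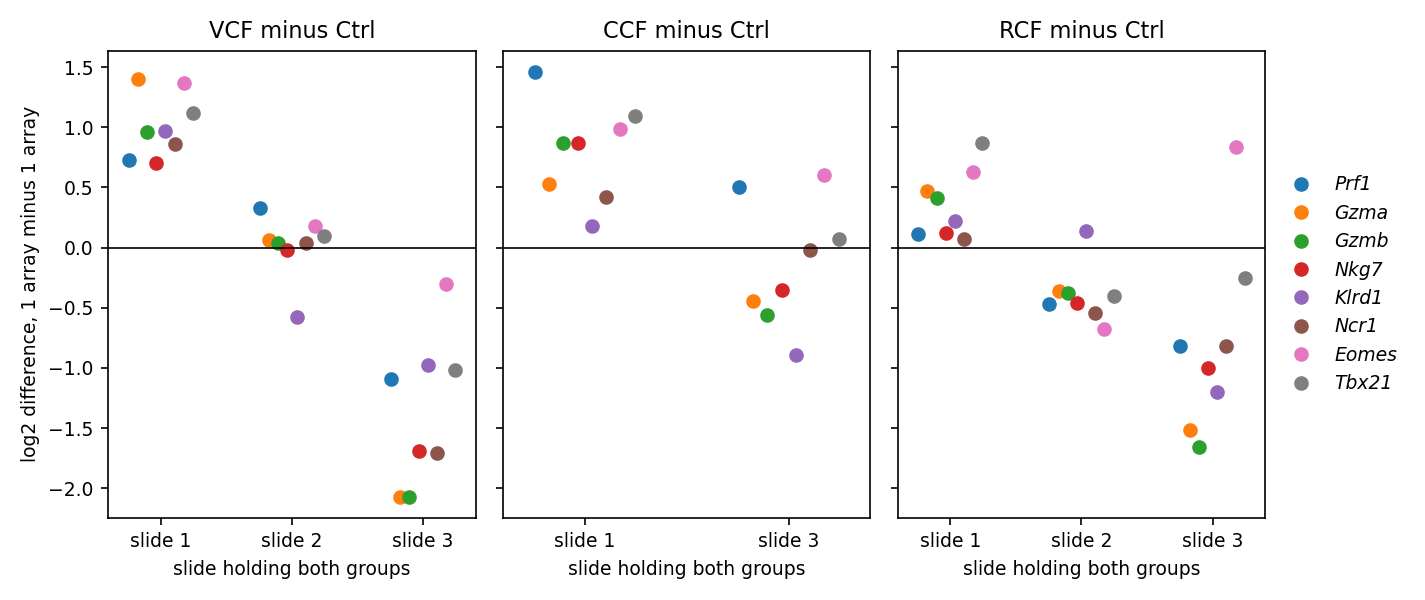
Log2 difference between 1 fibre array and the Ctrl array of the same slide for each killer gene, for VCF, CCF and RCF on the slides that hold both. On slide 1 all points lie above 0, and on slide 3 all VCF points lie below 0, down to -2.07.

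In the wider killer machinery, too, 0 genes were called by limma in each comparison with Ctrl, where at most 0.0102% of all probes were. At an unadjusted p under 0.05, in all fibres against Ctrl, 0 of 17 granule partners, 1 of 17 receptor genes, 1 of 11 transcription factors and 1 of 6 cytokine genes were lower, against 2.88% of all genes. None was higher, against 2.92% of all genes. The list of 18 granule partners also held the death ligands Fasl and Tnfsf10 and the secreted Ifng, Ccl5 and Xcl1. Its counts are thus not of the granule pathway alone. Of the 18 genes 17 were tested, and 2 were higher and 15 lower in all fibres against Ctrl, with a median of -0.18. Ctsc, the protease that activates granzymes, differed by -0.29 (SE 0.16, limma adjusted p = 0.797), the death ligand Tnfsf10 by -0.23 (SE 0.15) and granzyme M (Gzmm) by -0.26 (SE 0.17). By fibre, 4 were higher and 13 lower in VCF, 7 and 10 in CCF, and 4 and 13 in RCF.

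Receptors and their adaptors split more evenly, with 7 higher and 10 lower of 17 tested of 18 in all fibres and a median of -0.05. Sh2d1b1 (EAT-2, an adaptor of SLAM-family receptors) had the smallest p of the list, with a difference of -0.51 (SE 0.17, limma adjusted p = 0.599), and it was lower on each of slides 1, 2 and 3, by -0.33, -0.24 and -0.52. It differed by -0.48 in VCF, -0.73 in CCF and -0.32 in RCF. The signalling adaptors Tyrobp (DAP12) and Hcst (DAP10) differed by -0.34 (SE 0.29) and -0.29 (SE 0.28). By fibre, 4 were higher and 13 lower in VCF, 9 and 8 in CCF, and 3 and 14 in RCF. These counts rest on the same 3 Ctrl lungs as those of the 8 killer genes. The mean receptor gene lay 0.45, 0.05 and -0.50 from the Ctrl mean in Ctrl replicates 1, 2 and 3.

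Transcription factors of the programme gave 5 higher and 6 lower of 11 tested of 12. Id2, needed for natural killer cell development, differed by -0.42 (SE 0.18, limma adjusted p = 0.721), Bcl11b, a T cell factor, by 0.38 (SE 0.23) and Zeb2, a factor of terminal maturation, by 0.16 (SE 0.13). In CCF, Bcl11b differed by 0.92 (SE 0.28, limma adjusted p = 0.637), beside thymus genes that were high in 2 of 3 CCF arrays, and the part of those genes in that value was not tested. By fibre, 5 were higher and 6 lower in VCF, 8 and 3 in CCF, and 5 and 6 in RCF. The 11 differences in CCF ran from -2.31 to 0.92. At an unadjusted p under 0.05 by limma, 1 of the 11 was higher there and 0 lower, against 2.52% and 3.12% of all genes.

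Cytokines that feed these cells had lower means for 6 of 6 tested of 8 in all fibres, with a median of -0.16. Il18, which primes natural killer cells to make interferon gamma, differed by -0.39 (SE 0.15, limma adjusted p = 0.679), and by -0.65 (SE 0.18, limma adjusted p = 0.623) in CCF alone. Il15ra, which presents the survival factor interleukin 15, differed by -0.26 (SE 0.17) and Il27 by -0.12 (SE 0.18). By fibre, 3 were higher and 3 lower in VCF, and 0 and 6 both in CCF and in RCF. Each list is read against the 56% of all genes that were lower in all fibres, and against 54.2% in VCF, 58.7% in CCF and 50.3% in RCF.

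Markers of other cells were measured on the same arrays, each list as its mean difference from the Ctrl mean. The list scores that followed the mean of the 8 killer genes over the 14 arrays, as descriptions, were the killer receptors (r = 0.93), T cells (0.83), granule partners (0.82) and all leukocytes (0.81). The rest followed less, with killer transcription factors at 0.58, neutrophils at 0.41, B cells at 0.25, red blood cells and mast cells both at 0.23, thymus at 0.20, lung at 0.19, killer cytokines at 0.04, liver at -0.14 and fat at -0.43. T cell genes (14 of 15 tested) ranged from -0.48 to 0.20 in VCF lungs, -0.03 to 0.29 in CCF lungs, -0.24 to 0.01 in RCF lungs and -0.31 to 0.17 in Ctrl lungs. Leukocyte genes (6 of 6) ranged from -0.57 to 0.07 in VCF lungs, -0.22 to 0.19 in CCF lungs, -0.32 to 0.05 in RCF lungs and -0.45 to 0.38 in Ctrl lungs. Ctrl replicate 1 was the highest for the leukocyte genes and VCF replicate 2 the lowest, as for 4 of the killer genes, and the part of leukocyte number in the shared spread was not tested.

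Neutrophil genes (8 of 8 tested) ranged from -0.86 to -0.31 in VCF lungs, -0.47 to 0.16 in CCF lungs, -1.27 to -0.38 in RCF lungs and -0.83 to 1.20 in Ctrl lungs, the last in Ctrl replicate 1. Without that array, 13 of the differences of single killer genes from Ctrl changed sign. Thymus genes (2 of 5 tested, Rag2 at background on every array) reached 5.75 in CCF replicate 3, 2.83 in CCF replicate 2 and 2.23 in RCF replicate 1. They ranged from -0.26 to 0.13 in VCF lungs and -0.27 to 0.50 in Ctrl lungs. In CCF replicates 1, 2 and 3 the thymus score was 0.00, 2.83 and 5.75, and the level of Prf1 was -0.87, -1.49 and -0.89. The part of thymus genes in the Prf1 values was not tested. Without the 4 arrays highest in genes of other tissues, which leaves CCF with replicate 1 alone, the Prf1 difference for CCF against Ctrl was 1.14 (limma adjusted p = 0.864).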

How the data were processed

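Lung RNA of 14 mice was measured on 1-colour Agilent 44K arrays. Per the file headers, the authors scanned with Agilent Feature Extraction 10.7.3.1, whose intensity per spot has the background taken off and is on no common scale over arrays. The log2 table deposited by the authors equals, for 100% of its 27496 probes and within 0.01, log2 of that intensity minus 1 constant per array, close to the 75th percentile. None of its columns belongs to another sample (0), and the rule for its choice of probes is not given in the sources used here. Flags for signal above background and the raw median signals were also read from the deposited scanner output.

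Each array's log2 intensity was scaled by its 75th percentile over non-control probes. Spots of 1 probe were averaged without flagged spots (0 spots of the killer genes were flagged), giving 41174 probes from 43379 spots, with 1639 control spots left out. Probes well above background on at least 3 of 14 arrays were tested (29269). Symbols came from RefSeq transcripts through a gene table on GRCm38.p6 (24844 probes matched, 16330 did not), and no coordinates were taken from it. limma 3.58.1 in R 4.3.3 fitted all 4 groups at once (10 residual and 2.39 prior degrees of freedom), two-sided, with Benjamini-Hochberg adjustment over the probes per comparison. A gene was read at its brightest probe. Single genes were also compared with an exact permutation test, and correlations used SciPy 1.17.1. The fit was checked on simulated data. Alternatives covered background correction, normalization, the authors' table, filters, probe choice, slide and replicate blocks, the prior, array weights and left-out arrays. The mean signal was not in the files used here, so normexp ran on the median signal with an offset of 50.

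The genes named are all 8 killer genes, the 3 of each wider killer list with the smallest p for all fibres against Ctrl, and the 5 genes (3 for Gzma) of highest correlation. Bcl11b and Il18 in CCF alone were added after their values were seen. The members, lists and motifs were chosen with earlier results of these data known. Values within slides use the slide barcode of the file headers.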

Additional observations from a re-analysis of the deposited data

Results flagged for a closer look

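Tbx21 in RCF replicate 4 stood apart from its group, at -1.03 (log2 level) against -0.50 to -0.42 in the other 3 RCF lungs. Its gap was 0.866 of the group's range, above Dixon's critical value of 0.829 for 4 samples. It was the only such value among 16 sets of 4 lungs examined, and chance flags about 1 in 20. The same array had the lowest Prf1 level of all 14, -2.77. Without it no killer gene was called in any comparison.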

How the results depend on the processing

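No killer gene was called in any of the 7 comparisons under any of 27 other settings (189 values, all 0). Few probes of any kind were called in any setting, so these zeros say little about how stable single killer genes are. Over the 14 arrays left out in turn, the probes called ranged from 0 to 16 in VCF against Ctrl, 0 to 1 in CCF, 0 to 10 in RCF, 0 to 12 in all fibres, 0 to 1 in CCF against VCF and in RCF against VCF, and 0 to 3 in RCF against CCF. The highest counts came without CCF replicate 1 (VCF 16, RCF 10) or CCF replicate 3 (all fibres 12, RCF against CCF 3). Probes called in VCF and in all fibres against Ctrl (3 and 1 as reported) were 0 and 0 with normexp, quantile or cyclic loess and without the 4 arrays highest in genes of other tissues, 5 and 2 without a filter, 6 and 2 with detection on all arrays of a group, and 1 and 0 with slide as a block. They were 6 in VCF in the authors' deposited table, 1 in VCF with only the groups compared, 5 in all fibres with a trended prior, and 8 and 4 with array weights. RCF gave 1 without a filter or with the mean over probes (all fibres then 2) and 5 with array weights, and RCF against VCF gave 1 with slide as a block and 3 with array weights. Replicate numbers did not clearly pair the arrays (same-number correlations of deviations -0.37 to 0.35, median 0.05 over 19 pairs, 7 of 14 arrays closest to their own number). Arrays of 1 slide did deviate together (median 0.12 over 18 pairs, against -0.08 over 55 pairs of different slides, with 11 of 14 arrays closest to one of their own slide). Replicate 3 of Ctrl, VCF and CCF all lay on slide 1, so number and slide cannot be fully told apart. With the replicate block 6 probes were called in VCF and 0 in all fibres, and Prf1 in VCF was 0.06.

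Outside the values of single slides, the sign of a killer gene's difference turned in 46 values, 13 of them without Ctrl replicate 1, and none was called. Within single slides, where there is no test, it turned in 39 of 94. Left-out ranges that cross 0 were, in VCF, Prf1 -0.21 to 0.28, Gzma -0.69 to 0.11, Ncr1 -0.63 to 0.01 and Tbx21 -0.37 to 0.23. In CCF they were Gzma -0.61 to 0.13, Gzmb -0.60 to 0.29, Nkg7 -0.30 to 0.20 and Ncr1 -0.38 to 0.36. In RCF they were Prf1 -0.39 to 0.16, Gzmb -0.87 to 0.03 and Tbx21 -0.21 to 0.39, and in all fibres Gzma -0.71 to 0.03, Gzmb -0.80 to 0.09, Ncr1 -0.53 to 0.12 and Tbx21 -0.14 to 0.46. With array weights VCF gave Gzma 0.00, Prf1 0.19 and Tbx21 0.16, CCF gave Gzmb 0.05, Ncr1 0.15 and Nkg7 0.10, and RCF gave Prf1 0.05. Nkg7 in CCF was 0.04 with quantile or cyclic loess, 0.09 with the mean over probes, 0.15 with normexp and 0.14 with slide as a block (Ncr1 0.04). Normexp gave Eomes -0.10 in CCF, where it moved the median of all probes to -0.226. Without the 4 arrays, CCF gave Gzma 0.21, Gzmb 0.37, Ncr1 0.72 and Nkg7 0.07 (median of the 8, 0.49), VCF gave Tbx21 0.07 and all fibres Ncr1 0.03, with the lone CCF array assumed to vary like the other groups.

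The median of the 8 genes within slides 1 and 3 was 0.97 and -1.39 in VCF against Ctrl, 0.32 and -0.91 in RCF, and 0.76 and -0.93 in all fibres. In CCF against Ctrl the median was 0.87 on slide 1, while on slide 3 the genes ran from -0.89 to 0.60, 3 higher and 5 lower. CCF against VCF gave -0.24 and 1.43, RCF against VCF -0.67, -0.46, 0.62 and 0.54 on slides 1 to 4, and RCF against CCF 0.12 on slide 4. The cause of these turns was not tested.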

Other observations

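Red blood cell genes (5 of 6 tested) had higher means in each fibre group than in Ctrl, 5 of 5 each, where 45.8%, 41.3% and 49.7% of all genes were higher in VCF, CCF and RCF, with scores of 0.86 to 1.63 in VCF lungs, 0.23 to 1.81 in CCF lungs, 0.67 to 1.23 in RCF lungs and -0.64 to 0.58 in Ctrl lungs, and 0 of them were called by limma (in all fibres against Ctrl 3 of 5 were higher at an unadjusted p under 0.05, against 2.92% of all genes). Mast cell and basophil genes (5 of 7 tested) scored -0.07 to 1.31 in VCF lungs, -0.26 to 0.16 in CCF lungs, 0.05 to 1.15 in RCF lungs and -0.50 to 0.45 in Ctrl lungs. B cell genes (8 of 8) scored -0.62 to 0.59 in VCF lungs, -0.25 to -0.05 in CCF lungs, 0.01 to 0.34 in RCF lungs and -0.33 to 0.21 in Ctrl lungs. Liver genes (3 of 6) reached 4.60 in CCF replicate 2 and 4.34 in RCF replicate 1, and fat genes (6 of 6) 2.39 in VCF replicate 1, against at most 0.20 and 0.52 in Ctrl lungs. The 6 lung genes scored -0.20 to 0.41 over the fibre lungs and -0.31 to 0.34 in Ctrl lungs.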
